A study of Rattus norvegicus with 23 samples.

Results

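The genes described here are 45 genes of DNA replication and of the step from G1 into S phase, chosen by name for their function and looked up by symbol among the 20301 genes of the table. All 45 were found. They cover the proteins that license replication origins, the replicative helicase, the DNA polymerases and primase, the sliding clamp with its loader, the ligation of the lagging strand, the supply of deoxynucleotides, the packing of new DNA into chromatin, and the cyclins and E2F factor of the G1/S step. RNA-sequencing was done on CD11b/c-positive cells, labelled microglia, that were sorted magnetically from brains of Wistar rats operated at postnatal day 7 and collected 24 h later. The Sham group (n = 6) had a neck incision under isoflurane and no listed injection. The LPS group (n = 5) received 0.1 mg/kg of Escherichia coli lipopolysaccharide 4 h before the same sham surgery. The NaCl/HI group (n = 6) received saline, then ligation of the left common carotid artery and 50 min at 8% oxygen, which is called hypoxia-ischemia (HI). The LPS/HI group (n = 6) received both LPS and HI. For Sham and LPS the whole brain of 1 pup made a sample, whereas a NaCl/HI or LPS/HI sample pooled the ipsilateral hemispheres of 2 pups, so HI and the tissue taken cannot be told apart. Pups of both sexes were used, and the labels give no sex per sample.

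A cell licenses its replication origins in G1 by loading the MCM helicase with the help of ORC, CDC6 and CDT1. At the start of S phase the helicase is activated by MCM10, CDC45 and the GINS complex, after which the polymerases copy the DNA behind it. The genes of this machinery are classical targets of E2F factors and are transcribed in late G1 and S phase, before the genes of mitosis. Microglia of the early postnatal rodent brain divide, and they can divide further after an inflammatory or ischemic stimulus.

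The sequences that bear on a shared G1/S programme are those just upstream of the transcription starts. RefSeq promoter windows of assembly GRCr8, each from 250 bases before to 50 bases after a start, were found for 38 of the 45 genes as 41 windows. No window was at hand for Orc1, Cdc6, Mcm4, Rpa3, Rrm2, E2f1 and Ccne2. An exact E2F site, searched on both strands as TTTCCCGC or TTTGGCGC, was present in 13 of the 41 windows (31.7%) and in 485 of all 33469 windows (1.45%). Among the roles, the share was highest for origin licensing, at 5 of 7 windows. The E2F share was 31.8% in the windows of genes that were higher in LPS than in Sham by the test below and 31.6% in the windows of the other members. For comparison, 16 windows of 20 mitosis genes held no such E2F site, and 11 of them held a CHR element, TTTGAA, the sequence through which mitotic genes are commonly timed. The CHR element occurred in 5 of the 41 windows of the replication genes (12.2%) and in 18.3% of all windows. A CCAAT box occurred in 25 of the 41 windows (61%), in 37.5% of all windows and in 81.2% of the mitosis windows. Each of these letters is a match and not a shown binding site.

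**Figure D1:**
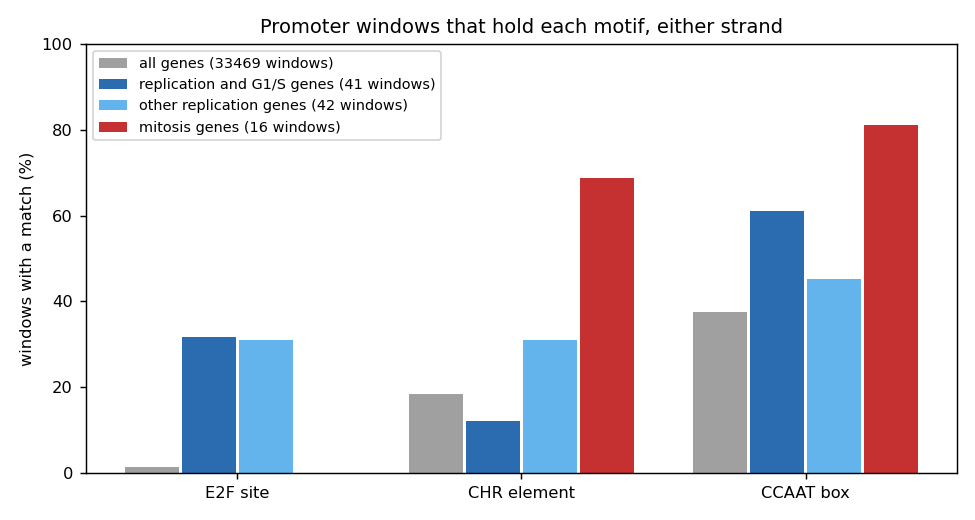
Share of promoter windows (%) with at least 1 match on either strand to an E2F site, a CHR element or a CCAAT box, for all genes, the replication and G1/S genes, other replication genes and mitosis genes. The E2F site is found in 31.7% of the windows of replication and G1/S genes against 1.45% of all windows, and the CHR element in 68.8% of the mitosis windows.

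The 120 bases before the start are shown for 6 genes, on the strand of the gene, 5′ to 3′, with E2F matches in capitals. The first 4 were chosen because the match lies close to the start. Gins1 holds overlapping matches of both strands in its last 25 bases (chr3:160184800-160184919, plus strand). Gins3 has its match 36 to 29 bases before the start (chr19:9434680-9434799, minus strand). Mcm5 has it directly at the start (chr19:13488693-13488812, plus strand), and Tyms 37 to 30 bases before it (chr9:120776084-120776203, minus strand). Rrm1 (chr1:166235784-166235903, plus strand) and Tk1 (chr10:103544778-103544897, minus strand) were chosen because they were among the genes that differed most from Sham. Their windows hold none of the 8-letter matches, which says only that these exact letters are not in them.
Gins1: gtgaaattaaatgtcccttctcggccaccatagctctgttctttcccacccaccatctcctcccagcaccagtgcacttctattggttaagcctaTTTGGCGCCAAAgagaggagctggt
Gins3: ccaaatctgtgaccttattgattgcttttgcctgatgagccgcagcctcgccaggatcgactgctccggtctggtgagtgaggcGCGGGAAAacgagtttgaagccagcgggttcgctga
Mcm5: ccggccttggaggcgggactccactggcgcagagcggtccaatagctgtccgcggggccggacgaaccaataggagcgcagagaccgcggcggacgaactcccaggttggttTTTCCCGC
Tyms: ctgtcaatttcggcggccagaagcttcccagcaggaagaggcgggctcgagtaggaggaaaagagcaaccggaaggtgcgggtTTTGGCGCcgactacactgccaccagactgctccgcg
Rrm1: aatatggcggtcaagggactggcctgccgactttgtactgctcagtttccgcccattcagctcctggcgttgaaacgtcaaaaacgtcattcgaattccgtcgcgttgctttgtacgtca
Tk1: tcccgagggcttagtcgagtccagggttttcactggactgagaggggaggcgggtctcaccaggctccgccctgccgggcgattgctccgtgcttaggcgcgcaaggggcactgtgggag

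All values below are rlog values, a regularized log2 expression scale on which a difference of 1 is a doubling. Library medians over all genes lie between 7.75 and 7.82. The means of the 45 genes over all samples lie between 7.16 and 12.3, and the lowest stands at the 44.5th percentile of all genes. The depth of the libraries is unknown, since the table holds no counts. The 12 microglia markers that were found averaged 11.9 to 12.3 per sample, far above the library medians. In such bulk samples, fewer cells that express a gene and less RNA per cell cannot be told apart.

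A pair of libraries stood apart in these genes by how often they held the highest or the lowest value. LPS replicate 4 was the highest of the 5 LPS samples in 43 of the 45 genes and the highest of all 23 samples in 35. Its mean over the 45 genes was 10.28, against 10.002, 9.97, 9.93 and 9.91 in the other LPS samples. Sham replicate 1 was the lowest of all 23 samples in 25 genes, with a mean of 9.70 against 9.77 to 9.96 in the other Sham samples. By Dixon's limit, given below, the mean of LPS replicate 4 was set apart in its group and that of Sham replicate 1 was not. The means ran from 9.93 to 10.06 in NaCl/HI and in LPS/HI alike. The median SD of the 45 genes was 0.12 in Sham, 0.16 in LPS, 0.090 in NaCl/HI and 0.073 in LPS/HI, beside medians over all genes of 0.084, 0.084, 0.10 and 0.087. Counts of the 45 genes called against Sham are given with and without these libraries.

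Some of the replication genes rose in LPS and in LPS/HI against Sham by the adjusted p, and none was called in NaCl/HI. The median difference was nonetheless alike, at 0.17 in LPS, 0.15 in LPS/HI and 0.18 in NaCl/HI. In LPS against Sham, 40 of 45 had the higher mean, with a median difference of 0.17, a range from -0.05 to 0.50 and a median over all genes of -0.01. At an adjusted p under 0.05 in limma, 20 of the 45 rose and 0 fell, where 10.2% of all 20301 genes were called higher and 7.56% lower. The 20 were Mcm5, Mcm7, Mcm10, Gins1, Gins3, Pola2, Pole, Rfc2, Rfc3, Rfc5, Fen1, Lig1, Rpa1, Rrm1, Rrm2, Tk1, Dut, Chaf1a, Uhrf1 and Ccne1. In 14 genes every LPS sample lay above every Sham sample, a pattern that 8.05% of all genes showed. None also passed a fold change of 2, which 0.0690% of all genes did, and the largest change was that of Rrm1, at 1.41-fold. The count was 17 without LPS replicate 4, 17 without Sham replicate 1 and 11 without both, where 7.48%, 8.91% and 6.56% of all genes were called higher. The 11 genes left were Mcm10, Gins1, Rfc2, Rfc5, Lig1, Rrm1, Rrm2, Tk1, Chaf1a, Uhrf1 and Ccne1.

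In LPS/HI against Sham, 44 of 45 had the higher mean, with a median difference of 0.15. Here 11 rose and 0 fell, beside 5.30% of all genes called higher and 3.48% lower. They were Mcm7, Mcm10, Gins1, Gins3, Lig1, Rrm1, Rrm2, Tk1, Dut, Uhrf1 and Ccne1. Every LPS/HI sample exceeded every Sham sample in 8 genes, beside 3.85% of all genes. None passed a fold change of 2, which 0.0936% of all genes did. The count was 19 without LPS replicate 4, where 5.47% of all genes were called higher. It was 7 without each of Sham replicates 1, 4 and 6 and LPS/HI replicates 2, 3, 4 and 5, where 2.49% to 3.75% of all genes were. It was 11 without both LPS replicate 4 and Sham replicate 1, beside 3.75%.

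In NaCl/HI against Sham, 43 of 45 had the higher mean and the median difference was 0.18, but 0 were called by limma, beside 0.00985% of all genes. At an unadjusted p under 0.05, 30 of 45 were higher, against 7.33% of all genes. An exact Wilcoxon test called 0 members, which says nothing about them, since its smallest adjusted p over all 20301 genes was 0.21. Every NaCl/HI sample lay above every Sham sample in 5 genes, beside 0.522% of all genes. These were Mcm3, Mcm6, Mcm7, Mcm10 and Lig1. Without NaCl/HI replicate 4 the count was 6, beside 1.90% of all genes called higher in that fit. Without LPS replicate 4 it was 2, namely Mcm3 and Lig1, beside 0.0542%. It was 0 without Sham replicate 1 and 0 without both libraries that stood apart. At an unadjusted p under 0.05 in limma, 24 members differed in LPS and 23 in LPS/HI, in either direction, beside 6489 and 5447 of all 20301 genes. The 3 comparisons use the same Sham samples.

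**Figure D2:**
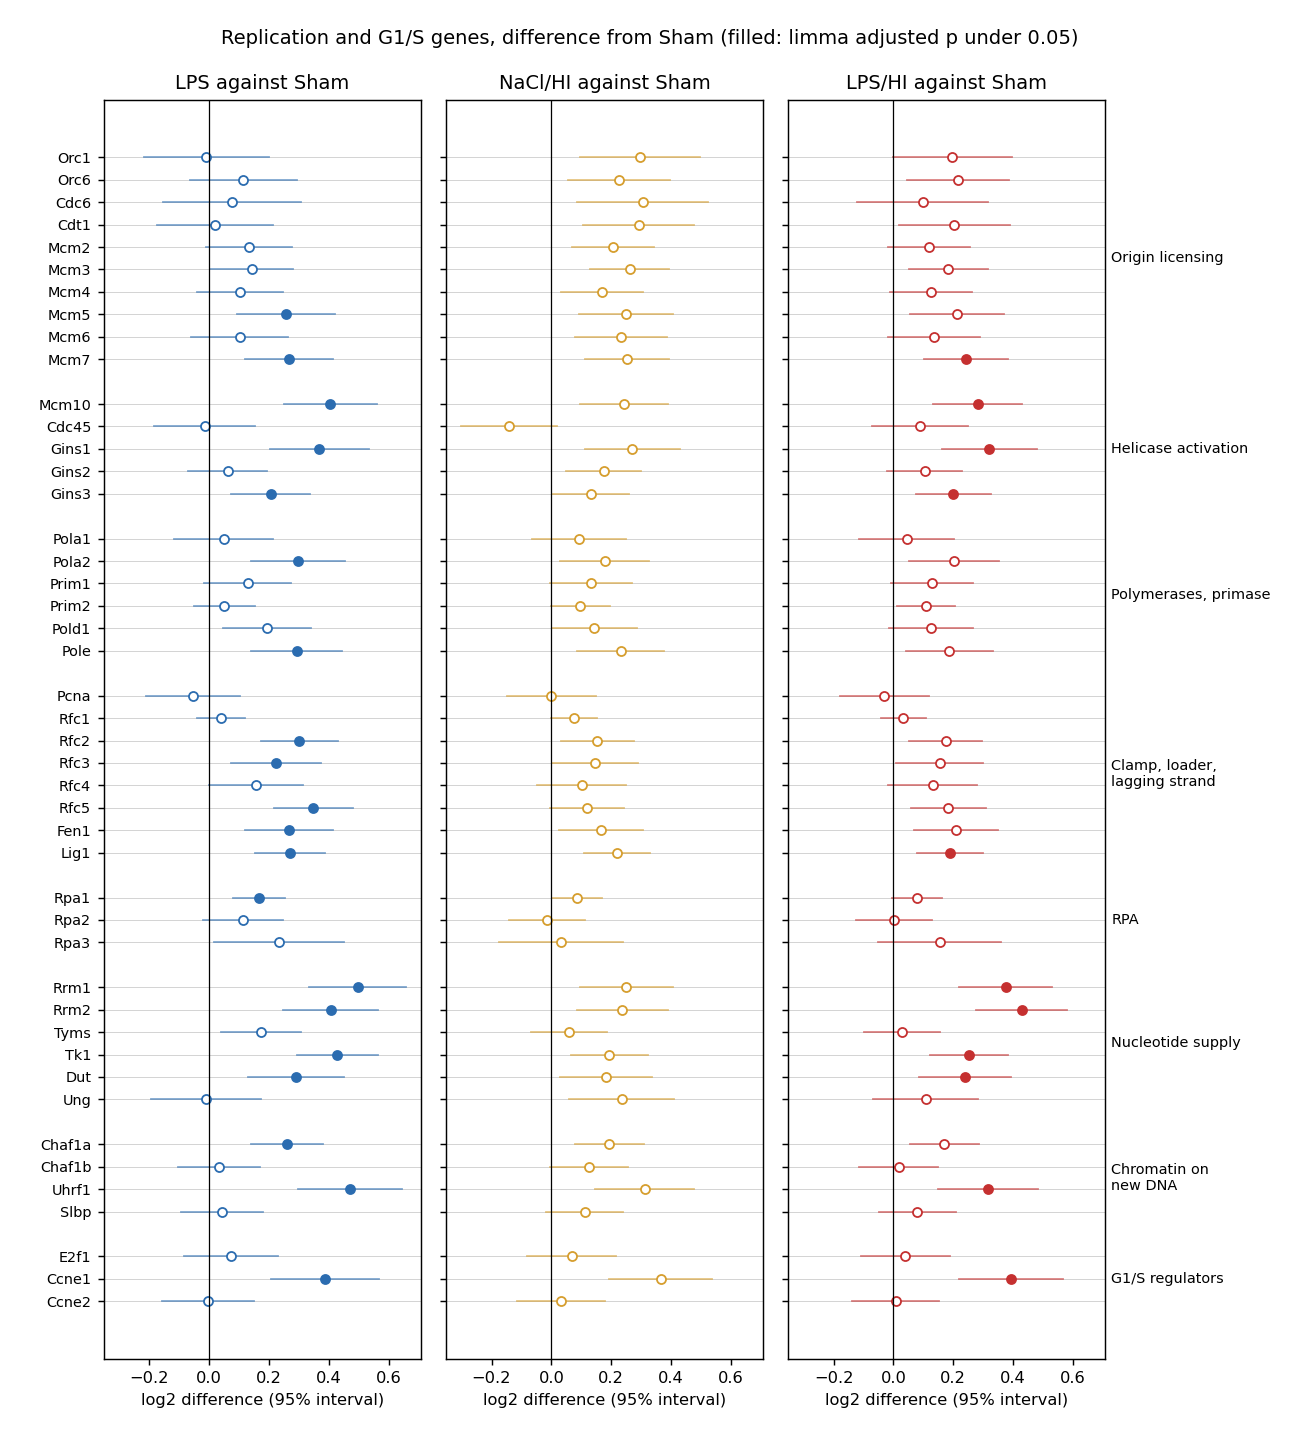
Difference of each group mean from Sham on the log2 scale (horizontal axis) with its 95% interval for the 45 genes, grouped by role. Filled points passed an adjusted p under 0.05 in limma, which 20 genes did in LPS, 0 in NaCl/HI and 11 in LPS/HI.

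Of the 10 origin licensing genes 8 had their highest mean in NaCl/HI, and Mcm5 and Mcm7 had it in LPS. Their median difference from Sham was 0.11 in LPS, 0.25 in NaCl/HI and 0.19 in LPS/HI. At an unadjusted p under 0.05 in limma there were 3, 10 and 5 of the 10, in the same order. Of all 20301 genes 6489, 3005 and 5447 passed that threshold. Orc1, the largest subunit of the origin recognition complex, measured 7.33, 7.25, 7.36, 7.62 and 7.14 in the LPS samples. Its lowest, median and highest values were 7.02, 7.40 and 7.48 in Sham, 7.33, 7.72 and 7.76 in NaCl/HI, and 7.30, 7.59 and 7.68 in LPS/HI. Thus 3 groups overlapped with LPS, in which only replicate 4 exceeded the Sham samples. The difference from Sham was -0.01 ± 0.10 (SE) in LPS and 0.30 ± 0.10 in NaCl/HI, with adjusted p of 0.96 and 0.19 in limma. Cdc6, which loads the helicase together with CDT1, measured 7.74, 7.56, 7.72, 8.20 and 7.46 in LPS. Its values were 7.34, 7.69 and 7.85 in Sham, 7.79, 7.96 and 8.12 in NaCl/HI, and 7.51, 7.80 and 7.86 in LPS/HI, again as lowest, median and highest. LPS replicate 4 was above all NaCl/HI samples while the other LPS samples were below all of them. Cdt1 measured 8.41, 8.64, 8.48, 8.86 and 8.38 in LPS, against 8.21, 8.57 and 8.67 in Sham, 8.63, 8.86 and 8.97 in NaCl/HI, and 8.58, 8.76 and 8.86 in LPS/HI. The LPS and Sham ranges of Cdt1 overlapped, and its difference between them was 0.02 (95% interval -0.17 to 0.21).

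Of the MCM helicase subunits, Mcm7 rose in LPS (0.27 ± 0.07, adjusted p = 0.012) and in LPS/HI (0.24 ± 0.07, adjusted p = 0.030), the latter in 15 of the 23 fits that each left out a library. Mcm7 was also the only subunit whose samples in each treated group all lay above all Sham samples. Mcm5 rose in LPS (0.26 ± 0.08, adjusted p = 0.029), a call that held in 18 of the 23 fits that each left out a library and was lost without Sham replicates 1, 2 or 4 or LPS replicates 1 or 4. Mcm2, Mcm3, Mcm4 and Mcm6 differed from Sham by 0.10 to 0.14 in LPS and by 0.17 to 0.26 in NaCl/HI, and none was called. Orc6 differed from Sham by 0.11, 0.23 and 0.21 in LPS, NaCl/HI and LPS/HI, also without a call.

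The genes that activate the helicase split. Mcm10 rose most among them, with 9.77, 9.68, 9.65, 10.14 and 9.73 in LPS and 9.28, 9.35 and 9.55 as lowest, median and highest in Sham. All LPS samples were above all Sham samples, and the difference was 0.41 ± 0.07 (adjusted p = 0.00071). NaCl/HI ran from 9.57 to 9.72, with a median of 9.62, and LPS/HI from 9.50 to 9.80, with a median of 9.68. Gins1, a subunit of the GINS complex, measured 9.01, 9.03, 8.86, 9.33 and 8.87 in LPS and 8.52, 8.63 and 8.95 in Sham. Sham replicate 5, at 8.95, was the only Sham sample inside the LPS range. Gins1 rose in LPS by 0.37 ± 0.08 (adjusted p = 0.0030) and in LPS/HI by 0.32 ± 0.08 (adjusted p = 0.015), where its values were 8.86, 8.95 and 9.10. In NaCl/HI, where it was not called, it measured 8.86, 8.91 and 9.01. Gins3 rose by 0.21 in LPS and by 0.20 in LPS/HI, calls that held in 19 and in 10 of the 23 fits that each left out a library. The LPS call was lost without Sham replicates 1 or 6 or LPS replicates 3 or 4. Gins2 differed from Sham by 0.06 and 0.10 in the same comparisons and was not called.

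Cdc45, which joins the MCM ring to the GINS complex, was not called in any comparison. It measured 12.41, 12.34, 12.28, 12.33 and 12.29 in LPS. Its lowest, median and highest values were 12.22, 12.30 and 12.60 in Sham, 12.10, 12.18 and 12.33 in NaCl/HI, and 12.12, 12.50 and 12.66 in LPS/HI. It was the gene with the widest spread in LPS/HI, and its NaCl/HI mean was the lowest of the 4 groups. LPS replicate 4 was not set apart in this gene. LPS/HI minus NaCl/HI was 0.23 ± 0.08, with an adjusted p of 0.24.

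Among the polymerase genes, Pola2 and Pole rose in LPS. Pola2, the regulatory subunit of DNA polymerase alpha, measured 9.001, 8.95, 8.92, 9.35 and 9.01 in LPS and 8.63, 8.76 and 8.85 in Sham. The groups did not overlap, and the difference was 0.30 ± 0.08 (adjusted p = 0.0094). NaCl/HI values were 8.75, 8.96 and 9.06 and LPS/HI values 8.77, 8.997 and 9.06. Pole, the catalytic subunit of the leading-strand polymerase epsilon, measured 11.18, 11.15, 11.11, 11.59 and 11.17 in LPS and 10.77, 10.98 and 11.07 in Sham. It was higher in every LPS sample than in any Sham sample, by a mean of 0.29 ± 0.07 (adjusted p = 0.0087). In NaCl/HI it measured 11.06, 11.19 and 11.28, and in LPS/HI 11.08, 11.12 and 11.26. Pold1, the catalytic subunit of the lagging-strand polymerase delta, measured 9.69, 9.71, 9.62, 9.997 and 9.64 in LPS, against 9.38, 9.55 and 9.64 in Sham. NaCl/HI gave 9.52, 9.70 and 9.84, and LPS/HI 9.55, 9.68 and 9.71. Pold1 differed from Sham by 0.19 in LPS with an adjusted p of 0.063. Pola1, Prim1 and Prim2, the catalytic subunit of polymerase alpha and the primase subunits, differed from Sham by 0.04 to 0.13 in every treated group, and none was called.

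The sliding clamp was not called, and 3 of the 5 subunits of its loader rose in LPS. Pcna, the sliding clamp, had group means of 12.16 in Sham, 12.11 in LPS, 12.16 in NaCl/HI and 12.13 in LPS/HI. Its difference from Sham was -0.05 in LPS (95% interval -0.21 to 0.10), 0.00 in NaCl/HI (-0.15 to 0.15) and -0.03 in LPS/HI (-0.18 to 0.12). Of the 5 subunits of its loader, replication factor C, Rfc2, Rfc3 and Rfc5 rose in LPS, by 0.30, 0.22 and 0.35, and Rfc1 and Rfc4 differed by 0.04 and 0.16 without a call. The call of Rfc3 held in 16 of the 23 fits with a library left out. Rfc2 measured 9.87, 9.88, 9.79, 10.15 and 9.91 in LPS, against 9.48, 9.62 and 9.72 in Sham, 9.70, 9.76 and 9.85 in NaCl/HI, and 9.66, 9.79 and 9.94 in LPS/HI. Rfc5 measured 9.93, 9.90, 9.81, 10.19 and 9.92 in LPS, against 9.51, 9.57 and 9.71 in Sham, 9.59, 9.72 and 9.85 in NaCl/HI, and 9.65, 9.81 and 9.85 in LPS/HI. For both, every LPS sample was above every Sham sample, with adjusted p of 0.0018 and 0.00061.

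Of the lagging-strand enzymes, Fen1, which trims the flaps of Okazaki fragments, rose in LPS by 0.27 ± 0.07. Lig1, which joins the fragments, measured 11.72, 11.83, 11.76, 12.07 and 11.69 in LPS, against 11.46, 11.53 and 11.65 in Sham. NaCl/HI gave 11.70, 11.77 and 11.84, and LPS/HI 11.66, 11.74 and 11.79. Lig1 was thus above all Sham samples in every sample of the 3 treated groups. Its difference was 0.27 ± 0.06 in LPS (adjusted p = 0.0021), 0.22 ± 0.05 in NaCl/HI (adjusted p = 0.12) and 0.19 ± 0.05 in LPS/HI (adjusted p = 0.032). The LPS/HI call held in 14 of the 23 fits with a library left out.

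The RPA subunits, which coat unwound DNA, had small differences. Rpa1 rose in LPS by 0.17 ± 0.04 (adjusted p = 0.0096), with 11.13, 11.11, 11.08, 11.30 and 11.07 in LPS and 10.91, 10.96 and 11.04 in Sham. Its NaCl/HI values were 10.99, 11.08 and 11.11 and its LPS/HI values 11.01, 11.04 and 11.11, overlapping with Sham. Rpa2 measured 9.56, 9.53, 9.54, 9.91 and 9.58 in LPS, against 9.34, 9.53 and 9.63 in Sham, 9.39, 9.51 and 9.62 in NaCl/HI, and 9.48, 9.51 and 9.55 in LPS/HI. LPS replicate 4 alone stood outside the Sham range. Rpa3 measured 7.74, 7.58, 7.45, 7.73 and 7.22 in LPS, against 7.17, 7.32 and 7.44 in Sham, 7.14, 7.40 and 7.49 in NaCl/HI, and 7.28, 7.45 and 7.79 in LPS/HI. Rpa2 and Rpa3 were not called in any comparison.

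Nucleotide supply genes had the largest differences of all roles in LPS, with a median of 0.35. Rrm1, the large subunit of ribonucleotide reductase, measured 12.01, 11.92, 11.77, 12.31 and 11.79 in LPS and 11.36, 11.42 and 11.66 in Sham. NaCl/HI gave 11.60, 11.74 and 11.79, and LPS/HI 11.76, 11.83 and 11.97. All LPS and all LPS/HI samples were above all Sham samples, by means of 0.50 ± 0.08 (adjusted p = 0.00015) and 0.38 ± 0.07 (adjusted p = 0.0058). Rrm2, its small subunit, measured 11.14, 11.12, 11.08, 11.38 and 10.96 in LPS and 10.55, 10.71 and 11.03 in Sham. NaCl/HI gave 10.84, 10.99 and 11.07, and LPS/HI 11.03, 11.15 and 11.28. Sham replicate 5, at 11.03, reached into both other ranges, and the remaining Sham samples lay below them. Rrm2 rose by 0.41 ± 0.08 in LPS (adjusted p = 0.00093) and by 0.43 ± 0.07 in LPS/HI (adjusted p = 0.0025).

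Tk1, the thymidine kinase of the salvage pathway, measured 11.50, 11.51, 11.36, 11.77 and 11.41 in LPS and 10.94, 11.07 and 11.26 in Sham. NaCl/HI gave 11.17, 11.29 and 11.37, and LPS/HI 11.26, 11.34 and 11.46. Every LPS sample was above every Sham sample, and the rise was 0.43 ± 0.07 in LPS (adjusted p = 0.00011) and 0.25 ± 0.06 in LPS/HI (adjusted p = 0.018). Dut, which keeps uracil out of the nucleotide pool, rose by 0.29 and 0.24 in the same comparisons, but the LPS/HI call held in only 7 of the 23 fits with a library left out. Tyms, which makes thymidylate, differed from Sham by 0.17, 0.06 and 0.03 in LPS, NaCl/HI and LPS/HI and was not called. Ung, which removes uracil from DNA, was ordered like the licensing genes, with differences of -0.01, 0.24 and 0.11, and was not called against Sham.

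Among the genes of chromatin on new DNA, Uhrf1, which guides maintenance methylation, measured 11.26, 11.20, 11.07, 11.61 and 11.02 in LPS and 10.58, 10.75 and 10.94 in Sham. NaCl/HI gave 10.93, 11.08 and 11.20, and LPS/HI 11.03, 11.06 and 11.19. It rose by 0.47 ± 0.08 in LPS (adjusted p = 0.00053) and by 0.32 ± 0.08 in LPS/HI (adjusted p = 0.021), in both cases without overlap. Chaf1a, the large subunit of the histone chaperone CAF-1, measured 10.53, 10.52, 10.52, 10.75 and 10.47 in LPS, against 10.15, 10.31 and 10.40 in Sham, 10.36, 10.48 and 10.63 in NaCl/HI, and 10.35, 10.47 and 10.56 in LPS/HI. It rose in LPS by 0.26 ± 0.06 (adjusted p = 0.0037). Chaf1b, another CAF-1 subunit, measured 9.21, 9.18, 9.14, 9.43 and 9.01 in LPS, against 9.04, 9.15 and 9.30 in Sham, 9.12, 9.29 and 9.40 in NaCl/HI, and 9.09, 9.16 and 9.31 in LPS/HI. Its groups overlapped throughout, and neither it nor Slbp, the histone mRNA binding protein, was called. Slbp differed from Sham by 0.04 to 0.11.

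Of the G1/S regulators only Ccne1, a cyclin E gene, was called. It measured 8.86, 8.87, 8.84, 9.20 and 8.75 in LPS and 8.34, 8.52 and 8.71 in Sham. NaCl/HI gave 8.61, 8.91 and 9.06, and LPS/HI 8.78, 8.92 and 9.04. The difference from Sham was alike in the 3 groups, at 0.39 ± 0.09 in LPS (adjusted p = 0.0041), 0.37 ± 0.08 in NaCl/HI (adjusted p = 0.10) and 0.39 ± 0.08 in LPS/HI (adjusted p = 0.0081). Ccne2, the other cyclin E gene, measured 8.40, 8.20, 8.45, 8.51 and 8.32 in LPS, against 8.22, 8.37 and 8.59 in Sham, 8.31, 8.38 and 8.62 in NaCl/HI, and 8.32, 8.39 and 8.45 in LPS/HI. Its difference from Sham in LPS was 0.00 (95% interval -0.16 to 0.15). E2f1 measured 8.94, 9.05, 8.94, 9.28 and 8.98 in LPS, against 8.72, 9.002 and 9.12 in Sham, 8.84, 9.06 and 9.15 in NaCl/HI, and 8.90, 9.02 and 9.06 in LPS/HI. Its difference in LPS was 0.07 (95% interval -0.08 to 0.23), and no group was set apart.

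**Figure D3:**
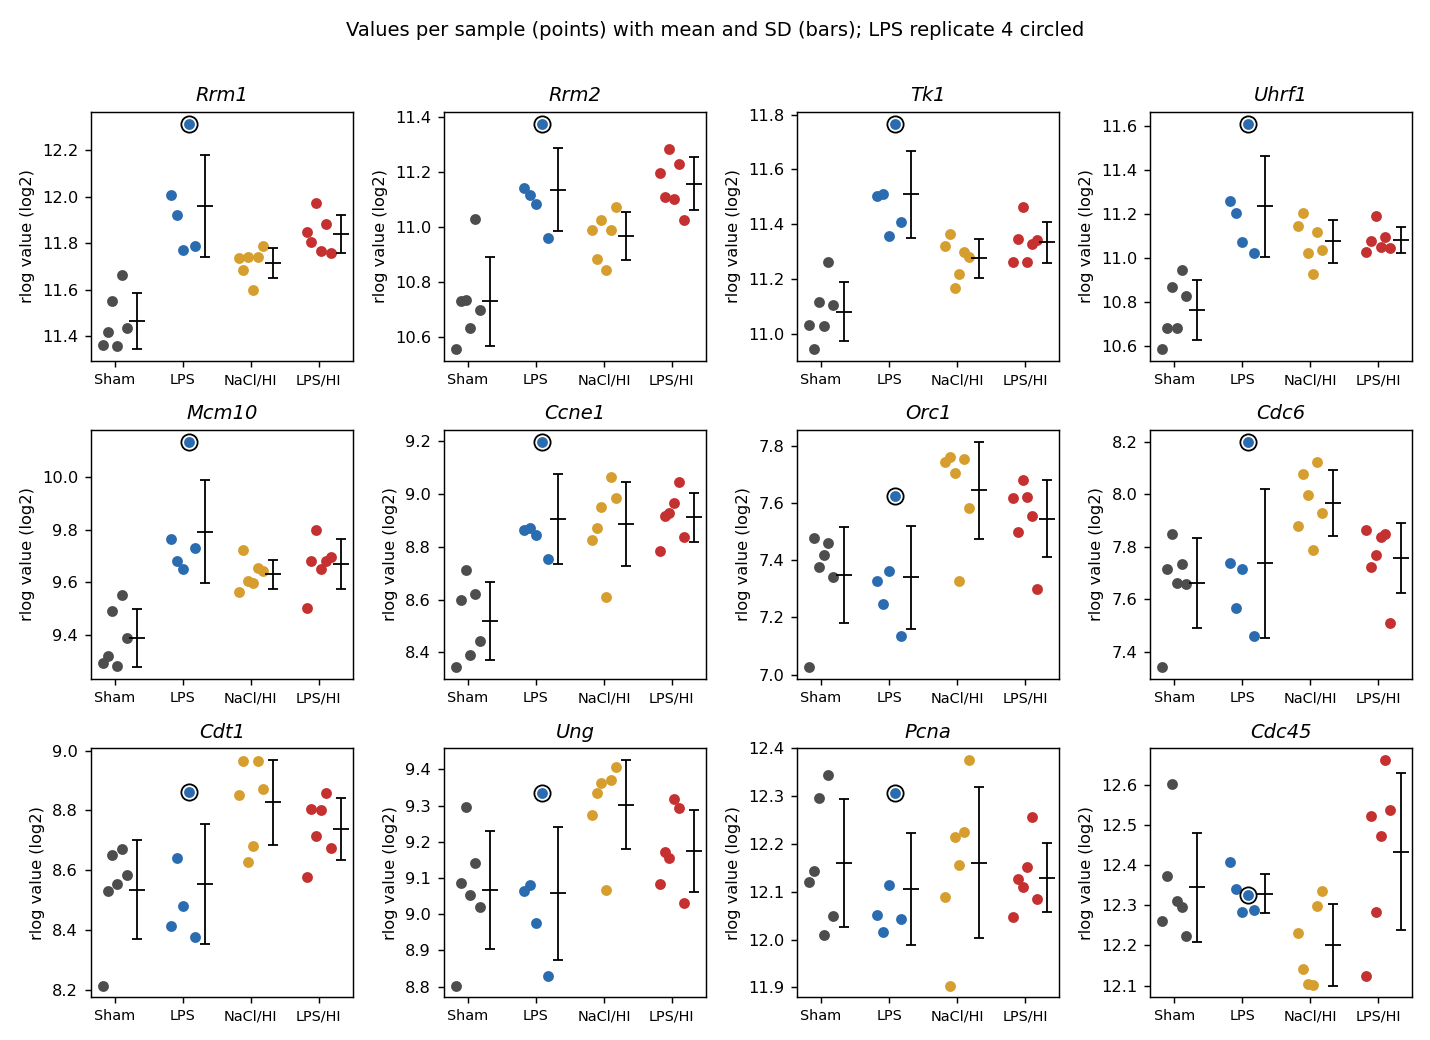
rlog values (log2, vertical axes, each with its own scale) of 12 genes in every sample of the 4 groups, with the mean and SD beside the points and LPS replicate 4 circled. In Rrm1, Tk1, Uhrf1, Mcm10 and Ccne1 every LPS sample is above every Sham sample, whereas in Orc1, Cdc6, Cdt1 and Ung the NaCl/HI mean is the highest.

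LPS and NaCl/HI were compared directly to ask whether the stimuli reach the same genes. With all samples, 0 members were lower in LPS, beside 743 of all 20301 genes, and 2 were higher, beside 5.32% of all genes. These were Rfc5 (0.23 ± 0.06, adjusted p = 0.026) and Tk1 (0.23 ± 0.07, adjusted p = 0.028). In both genes the groups overlapped. The Tk1 call was lost when any of LPS replicates 1, 2 and 4 or NaCl/HI replicates 3 and 4 was left out, and the Rfc5 call without LPS replicate 4 or NaCl/HI replicates 2 or 3. The opposite differences were found in Orc1 (-0.31), Cdt1 (-0.27), Ung (-0.25) and Cdc6 (-0.23), none of which was called with all samples. Without LPS replicate 4, 0 members were higher in LPS, beside 3.59% of all genes, and 6 were lower, beside 2.14%. The 6 were Orc1 (-0.38), Cdc6 (-0.35), Cdt1 (-0.35), Ung (-0.32), Mcm6 (-0.23) and Mcm3 (-0.20), and 5 of them are licensing genes. The same 6 were called when Sham replicate 1 was left out as well, beside 2.04% of all genes called lower. Without Sham replicate 1 alone, Rfc5 and Tk1 were higher and Orc1 and Cdt1 lower, 4 calls in all, beside 5.04% of all genes called higher and 3.51% lower. Without NaCl/HI replicate 4 there were 3 calls, 1 higher and 2 lower, beside 4.60% of all genes called higher and 3.42% lower. Without NaCl/HI replicate 3 there was 1, and it was lower, beside 4.85% of all genes called higher and 3.12% lower. Which genes differ between LPS and NaCl/HI therefore rests on single libraries, and the tissue taken differed between these groups.

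**Figure D4:**
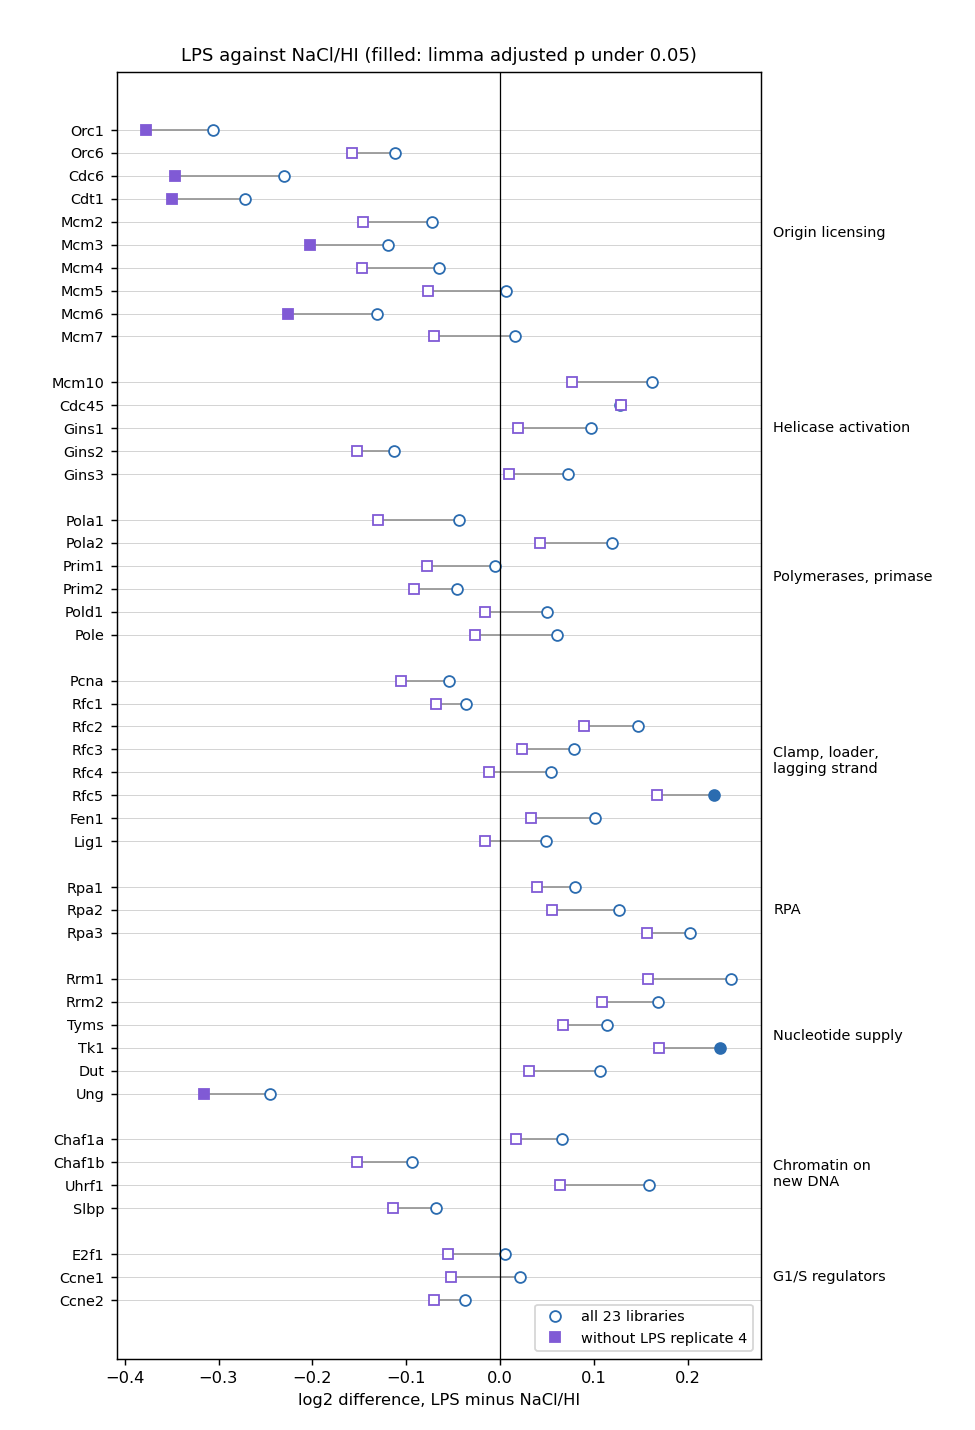
Difference of the LPS from the NaCl/HI mean (log2, horizontal axis) for the 45 genes by role, with all 23 libraries (circles) and without LPS replicate 4 (squares). Filled symbols passed an adjusted p under 0.05 in limma, and these are Rfc5 and Tk1 with all libraries and Orc1, Cdc6, Cdt1, Mcm3, Mcm6 and Ung without LPS replicate 4.

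HI on top of LPS, and LPS before HI, were tested between groups that share LPS or share HI. Only LPS/HI and NaCl/HI also share the tissue taken and the pooling of 2 pups. LPS/HI against LPS gave 0 calls in limma, beside 1.94% of all genes, with 3 of 45 members at an unadjusted p under 0.05, beside 15.5% of all genes. The differences ran from -0.18 to 0.21 with a median of -0.03. The 3 were Tk1 (-0.18), Rfc5 (-0.16) and Tyms (-0.14). LPS/HI against NaCl/HI also gave 0 calls, beside 0.202% of all genes. At an unadjusted p under 0.05 there were 2 of 45, Cdc45 (0.23) and Rrm2 (0.19), beside 10.6% of all genes. Differences ran from -0.21 to 0.23 with a median of -0.01. The exact Wilcoxon test called 0 members in either comparison, where it could call no gene at all (smallest adjusted p over all genes 0.10 and 0.16). The limma calls stayed at 0 in both comparisons when any single library was left out.

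The interaction asks whether LPS and HI together differ from the sum of their separate differences from Sham. The estimate was negative in 43 of 45 members, against 9136 of 20301 genes, with a median of -0.20 beside 0.01 over all genes, so that LPS/HI stood below that sum. The sign was not particular to these genes, as the estimate was also negative in 20 of 20 mitosis genes (median -0.49, 11 called) and in 15 of 15 checkpoint and repair genes (median -0.18, 1 called). The Sham and LPS samples that stand apart enter this estimate. Only Tk1 was called (-0.37 ± 0.09, adjusted p = 0.049), beside 0.719% of all genes called lower, and 23 of 45 members had an unadjusted p under 0.05, beside 15.1% of all genes. The Tk1 call remained in 6 of 23 fits that left out a library, those without Sham replicate 5, LPS replicates 3 or 5, NaCl/HI replicates 3 or 4, or LPS/HI replicate 3. The largest negative estimate, that of Uhrf1 (-0.47 ± 0.12), had an adjusted p of 0.053.

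Replication genes outside the 45 were counted in the same way. Of 45 further genes of the machinery, 19 rose and 1 fell in LPS against Sham, with a median of 0.16, beside 10.2% of all genes called higher and 7.56% lower. The largest rises were those of Asf1b, a histone chaperone (0.67), Dctpp1, which clears the nucleotide pool (0.64), Chtf18, of an alternative clamp loader (0.57), and Recql4, a helicase (0.56). In LPS/HI against Sham 16 of the 45 rose, beside 5.30% of all genes. In NaCl/HI against Sham 0 were called, with 19 at an unadjusted p under 0.05, beside 3005 of all 20301 genes. In LPS against NaCl/HI 6 rose, beside 5.32% of all genes. The largest of these rises were those of Dbf4 (0.45) and Asf1b (0.45), Dbf4 being the activator of the kinase that fires origins. The rises in LPS against Sham numbered 14 without LPS replicate 4, 16 without Sham replicate 1 and 12 without both libraries, beside 7.48%, 8.91% and 6.56% of all genes. Those in LPS/HI against Sham numbered 18, 7 and 11 in the same order, beside 5.47%, 3.41% and 3.75%. Those in LPS against NaCl/HI numbered 4, 5 and 3, beside 3.59%, 5.04% and 3.41%.

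Of 33 further genes of G1/S control, 12 rose and 2 fell in LPS against Sham, beside 10.2% of all genes called higher and 7.56% lower. The largest differences were those of Ccna2, cyclin A (0.70), Cdkn2c, an inhibitor of CDK4 and CDK6 (0.53), Mybl2 (0.48) and E2f8, a repressing E2F factor (0.41). Ccnd2, a D-type cyclin of G1, fell by 0.35. In LPS/HI against Sham 8 rose, beside 5.30% of all genes. In NaCl/HI against Sham 0 were called, with 9 at an unadjusted p under 0.05, beside 3005 of all 20301 genes. In LPS against NaCl/HI 7 rose, among them Ccna2 (0.52) and Cdkn2c (0.45), and 2 fell, Ccnd1 (-0.36) and Ccnd2 (-0.31). Of all 20301 genes 1081 were called higher and 743 lower there. Inhibitors and activators of the G1/S step were thus both among the genes that rose. The rises in LPS against Sham numbered 11 without LPS replicate 4, 11 without Sham replicate 1 and 10 without both libraries, beside 7.48%, 8.91% and 6.56% of all genes. Those in LPS against NaCl/HI numbered 5, 7 and 4, beside 3.59%, 5.04% and 3.41%.

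Genes that act in mitosis, after S phase, were counted beside the 45. The share of all genes called higher was 10.2% in LPS against Sham, 5.30% in LPS/HI against Sham and 5.32% in LPS against NaCl/HI. In NaCl/HI against Sham 3005 of all 20301 genes had an unadjusted p under 0.05 in limma. All 20 mitosis genes rose in LPS against Sham, with a median of 0.75, led by Plk1 (0.88), Ccnb2 (0.86) and Ccnb1 (0.86). All 20 also rose in LPS/HI against Sham (median 0.42), in LPS against NaCl/HI (median 0.58), and 0 were called in NaCl/HI against Sham (median 0.16), where 8 had an unadjusted p under 0.05. In LPS/HI against LPS 8 of the 20 mitosis genes fell, with a median of -0.31, beside 146 of all 20301 genes called lower. All 20 were still called in LPS against Sham and in LPS against NaCl/HI without LPS replicate 4, without Sham replicate 1 and without both. Of 15 replication checkpoint and repair genes, 7 rose in LPS and 7 in LPS/HI against Sham, led in LPS by Fancd2 (0.69) and Chek2 (0.52), and 0 were called in NaCl/HI, with 5 at an unadjusted p under 0.05. The 7 rises in LPS/HI became 4 without Sham replicate 1, beside 3.41% of all genes. The difference in size between the 45 genes and the mitosis genes was not tested.

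**Figure D5:**
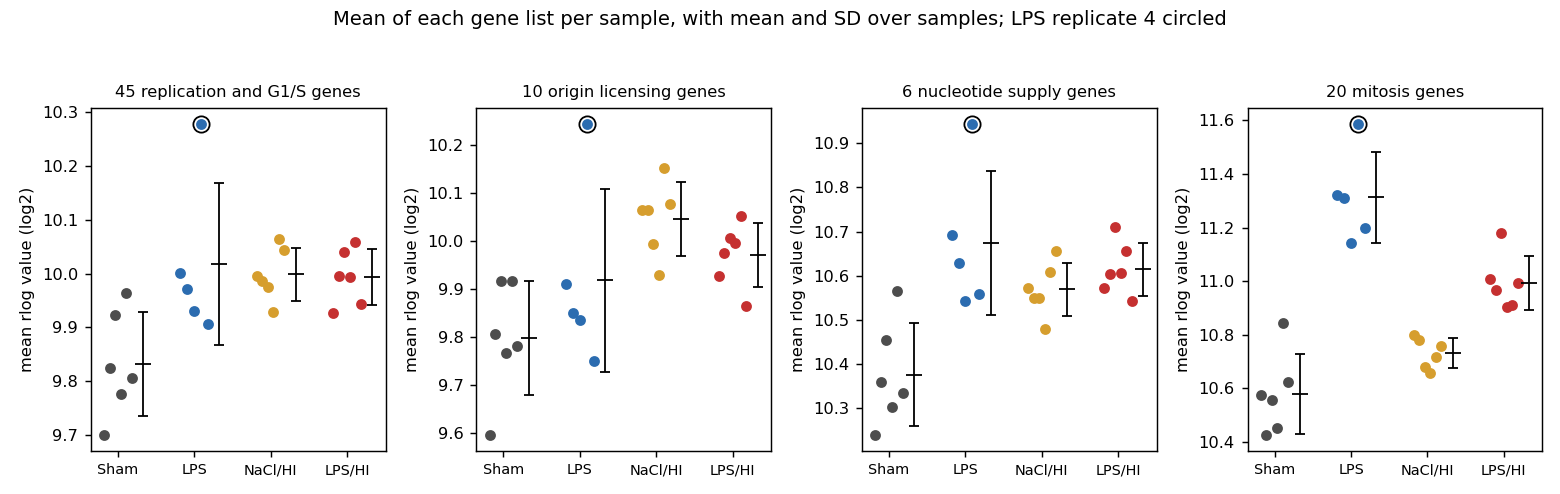
Mean rlog value (log2, vertical axes, each with its own scale) per sample of the 45 replication and G1/S genes, the 10 origin licensing genes, the 6 nucleotide supply genes and the 20 mitosis genes, with the mean and SD over samples and LPS replicate 4 circled. LPS replicate 4 is the highest sample in each panel, at 10.28 for the 45 genes, and NaCl/HI has the highest group mean, 10.05, for origin licensing.

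Markers of other cells moved with some groups. Of all 20301 genes, 2072 were called higher and 1534 lower in LPS against Sham, and 1075 and 706 in LPS/HI against Sham. In LPS against Sham 6489 of them had an unadjusted p under 0.05 in limma. In LPS against Sham 5 of the 12 microglia markers fell, among them Gpr34, P2ry12, Sall1 and Cx3cr1 (by 0.17 to 0.42), and the log2 of their summed level ran from 17.82 to 18.01 in Sham, 17.73 to 17.84 in LPS, 17.74 to 17.95 in NaCl/HI and 17.73 to 17.90 in LPS/HI. Of the monocyte markers Plac8 rose, by 1.17 in LPS and by 0.45 in LPS/HI, and the summed level of the 6 markers ran from 12.64 to 13.17 in Sham, 12.84 to 13.19 in LPS, 12.73 to 12.97 in NaCl/HI and 12.55 to 13.21 in LPS/HI. Of 12 neutrophil markers 1 rose and 2 fell in LPS and 4 rose in LPS/HI, with summed levels of 12.2 to 12.6, 12.5 to 12.7, 12.3 to 12.9 and 12.5 to 13.6 in the same order of groups. Of 7 border macrophage markers 1 rose and 2 fell in LPS and 1 fell in LPS/HI, with summed levels of 14.6 to 15.5, 14.3 to 14.9, 14.4 to 15.1 and 14.5 to 14.8. Markers of brain cells that can also divide gave 2 rises and 1 fall of 8 for neural progenitors and astrocytes, 0 calls of 7 for oligodendrocyte lineage cells, with 1 at an unadjusted p under 0.05, and 1 rise and 3 falls of 7 for endothelium in LPS against Sham. Their summed levels ran from 13.97 to 14.48, 12.56 to 13.28 and 14.14 to 14.42 in Sham and from 14.15 to 14.43, 12.65 to 12.98 and 14.08 to 14.32 in LPS. Neuron markers gave 2 falls of 7 in LPS, Snap25 (-0.41) and Syt1 (-0.35), while 5 erythroid markers and 6 lymphocyte markers gave 0 calls, with 3 and 2 at an unadjusted p under 0.05. In LPS/HI against Sham the same 2 neuron markers fell, Snap25 by 0.64 and Syt1 by 0.27. There Gfap (0.84), of the neural progenitor and astrocyte list, and the endothelial Pecam1 (0.17) rose, and the microglial Sall1 fell by 0.22. The part of these other cells in the differences of the replication genes was not tested.

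Among the libraries that stood apart, LPS replicate 4 had the lowest mean of the microglia markers in its group, 11.93 against 11.97 to 12.11, and Sham replicate 1 the highest in its group, 12.31 against 12.11 to 12.29. Sham replicate 1 also had the highest mean of the border macrophage markers, 11.34 against 10.67 to 11.14 in the other Sham samples, and of the erythroid markers, 7.45 against 6.20 to 6.80. Of 8 mitogens and receptors of microglia, Csf2rb (0.51), Il1b (0.43), Il34 (0.33) and Csf2ra (0.30) rose in LPS against Sham and Csf1 and Igf1 fell by 0.50 and 0.44. Csf2rb also rose in LPS/HI, by 0.54. In NaCl/HI against Sham 0 of the 8 were called, with 2 at an unadjusted p under 0.05, beside 3005 of all 20301 genes.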

How the data were processed

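The deposited table holds log2 values: the authors quantified reads with kallisto 0.48.0 on mRatBN7.2, imported the estimates into DESeq2, dropped rarely counted genes, merged protein-coding genes that share a symbol, took rlog values and regressed out 3 surrogate variables, per the study's methods. Libraries were made from Trizol-extracted RNA with a TruSeq kit. No sequencing depth is given with the table, so no interval from counts could be made, and no count test was run.

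Samples were grouped by their titles. R 4.3.3 with limma 3.58.1 fitted the 4 group means over all 23 samples and 20301 genes, with a variance trend, no further filter, and 16 in place of 19 residual degrees of freedom for the 3 removed variables. P-values were adjusted after Benjamini-Hochberg over all genes, and called means an adjusted p under 0.05. Since removing variables narrows the spread between samples and its error is not in the fit, p-values may be too low. The 45 genes and the other lists were chosen with earlier results of these data known. By rule, the 3 members of each role with the widest range of group means are given by sample, as would be any member called with a fold above 1.5, of which there was none, and up to 4 genes of each further list. Genes named beyond it were chosen after their values were seen. No member shares all its values with another gene. Symbols Fcrls, Chil3, Cldn5, Hba-a2 and Cd4 of the marker lists were not analysed here. Promoter windows are RefSeq's, of GRCr8, matched by symbol with Python 3.11.15, and their coordinates are not those of the table's build. Alternatives were other fits, scalings and filters, and leaving out libraries, of which Sham replicate 1 with LPS replicate 4 together was chosen after seeing the data. Values of some single marker genes are not reported here.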

Additional observations from a re-analysis of the deposited data

Results flagged for a closer look

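The highest or lowest of 184 groups of values was set apart from its neighbours by more than Dixon's 95% limit in 19, where chance alone gives about 1 in 20. The value given is the gap to the nearest sample as a share of the group's range. LPS replicate 4 was the highest LPS sample in 13 of them, with 0.743 for the mean of the 45 genes, 0.725 for Mcm6, 0.760 for Mcm10, 0.822 for Pola1, 0.789 for Pola2, 0.846 for Prim1, 0.765 for Pold1, 0.854 for Pole, 0.793 for Rfc4, 0.743 for Rpa1, 0.854 for Rpa2, 0.803 for Chaf1a and 0.734 for Ccne1. These are not independent, since the same library gives them all. Sham replicate 1 was the lowest Sham sample for Orc1 (0.693) and Cdt1 (0.691), and Sham replicate 5 the highest for Gins1 (0.694) and Rfc1 (0.668). In LPS/HI, replicate 1 was lowest for Pold1 (0.772) and replicate 3 highest for Pole (0.654).

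For Tk1 the estimated difference that LPS makes was smaller with HI than without it, with an interaction of -0.37 (adjusted p = 0.049 in limma). Over the alternatives and libraries left out, the interaction ran from -0.41 to -0.29, with adjusted p from 0.0035 to 0.16. The call remained in 6 of 23 fits that left out a library, and HI and the tissue taken cannot be told apart here.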

How the results depend on the processing

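No member that was called changed direction under any alternative. The shares of all genes called under the other fits, scalings and filters are not given here. A change in a member count below can therefore not be told apart from a general change in calls. The number of members called in LPS against Sham, 20 in the main fit, was 17 to 22 under 11 other fits, scalings and tests and 17 to 21 with a library left out. It was 11 without both Sham replicate 1 and LPS replicate 4, and 0 with a fold above 2 as well. The 0 calls in NaCl/HI against Sham became 4 with 19 residual degrees of freedom, 16 with array weights and 0 to 6 with a library left out. The 11 in LPS/HI against Sham became 18 with 19 degrees of freedom, 31 with array weights, 19 with only the 2 groups compared, 5 with a replicate block, 0 with a fold above 2, and 7 to 19 with a library left out. LPS/HI against LPS and against NaCl/HI went from 0 to 5 and 3 with array weights and stayed at 0 with any library left out. The 2 calls in LPS against NaCl/HI became 6 with 19 degrees of freedom (3 higher, 3 lower), 5 with array weights (2 higher, 3 lower), 6 without both libraries, and 0 with a fold above 2, with only the 2 groups compared, and with a replicate block, and 1 to 6 with a library left out. The exact Wilcoxon test also gave 0 there, but it could call no gene of the table (smallest adjusted p 0.059), so this says nothing about the 2 calls. The 1 interaction call became 9 with 19 degrees of freedom, 16 with array weights, 3 without the lowest 25% of genes, 4 with median centring, 0 with a fold above 2, no variance trend, a replicate block, a factor for the library number or without both libraries, and 0 to 3 with a library left out. The cause was not tested. The array weights are no usable alternative: they stopped before they converged and gave LPS/HI replicate 2 a weight of 215.57 against 0.32 to 1.69 in the other libraries, so that the LPS/HI mean in that fit is nearly this library alone. Replicate numbers do not pair the samples: deviations of 33 same-numbered pairs correlated from -0.47 to 0.47, with 9 above 0.1. With the replicate block there were 17 calls in LPS against Sham. The unknown depth limits what can be said of the lowest genes, and group and tissue taken cannot be told apart for HI.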
